A study of Mus musculus with 2 samples.

Results

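The outer dense fiber genes described here are the 6 rows of the count matrix with the symbols Odf1, Odf2, Odf2l, Odf3, Odf3b and Odf4, chosen by name among 50686 gene rows. All 6 were detected, and all 6 passed the filter on low counts. They were followed through 2552 single testis cells of 2 wild-type C57Bl/6J mice aged 8 weeks, with 1237 cells from mouse 1 and 1315 cells from mouse 2 in 1 droplet library each. The animals were littermates, with no treatment named for either, so the comparisons are between cells at different points of sperm formation and not between experimental conditions. Whole testis tissue was digested and passed through a 40 µm strainer, which sets the cells that could be sampled.

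Outer dense fibers are stiff cytoskeletal rods that run alongside the axoneme, the microtubule core of the sperm tail, in the midpiece and principal piece. They are built in spermatids after meiosis and are held to protect the tail from shear and to add elastic recoil. The genes named Odf do not form 1 sequence family. Odf1 and Odf2 encode the main structural proteins, Odf2 also encodes the centriole protein cenexin, and Odf2l encodes an ODF2-like protein of centrioles and the base of cilia. Odf3 and Odf3b encode related proteins of sperm tail and ciliary microtubules, and Odf4 encodes a tail protein with membrane-spanning segments.

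The cells were ordered without use of the 6 genes. K-means clustering gave 6 clusters with at least 20 cells in each mouse, which held 2533 cells and were numbered along diffusion pseudotime, an ordering by similarity of expression. By marker genes, cluster 1 was early spermatocyte-like (163 cells), cluster 2 pachytene or later spermatocyte-like (526), cluster 4 round spermatid-like (447), and clusters 5 and 6 elongating or condensing spermatid-like (193 and 514). Cluster 3 (690 cells) stayed unnamed, since 2 of the 11 round spermatid markers reached 1.5 times their level in all cells. It was led by Ssxb genes, of which Ssxb1 and Ssxb2 are among these 11 markers. Of all marker classes, round spermatids had the highest mean standardised expression in it (0.591). Pachytene or later spermatocytes came next (0.319). The other 19 cells were Sertoli-like (7), spermatogonium-like (7) and Leydig-like (5). Median depth ran from 16823 to 24178 unique molecular identifiers (UMIs) per cell in clusters 1 to 5, and was 11304 and 12453 UMIs in cluster 6 of mouse 1 and mouse 2. Levels are given as CPM, the UMIs of a gene relative to all UMIs of the same cells. In the 6 clusters they are given in each mouse, so n = 2, and p-values measure the spread between these 2 littermates. For the other 19 cells, counts are pooled over both mice unless a mouse is named.

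Over all cells, Odf2 received 124256 UMIs and ranked 25 among all rows of the matrix, with at least 1 UMI in every cell. Odf3 followed with 13310 UMIs and Odf4 with 9816. Odf1 had 3412 UMIs and Odf2l 2875. Odf3b was the least counted with 606 UMIs, found in 408 cells. As the reads were taken from transcript 3' ends, CPM needs no correction for length between genes, but transcript forms of 1 gene cannot be told apart. The reads were aligned to a repeat-masked genome. Masked bases could lower the count of 1 gene more than that of another, which was not checked, for Odf1 and its repeat included.

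**Figure D1:**
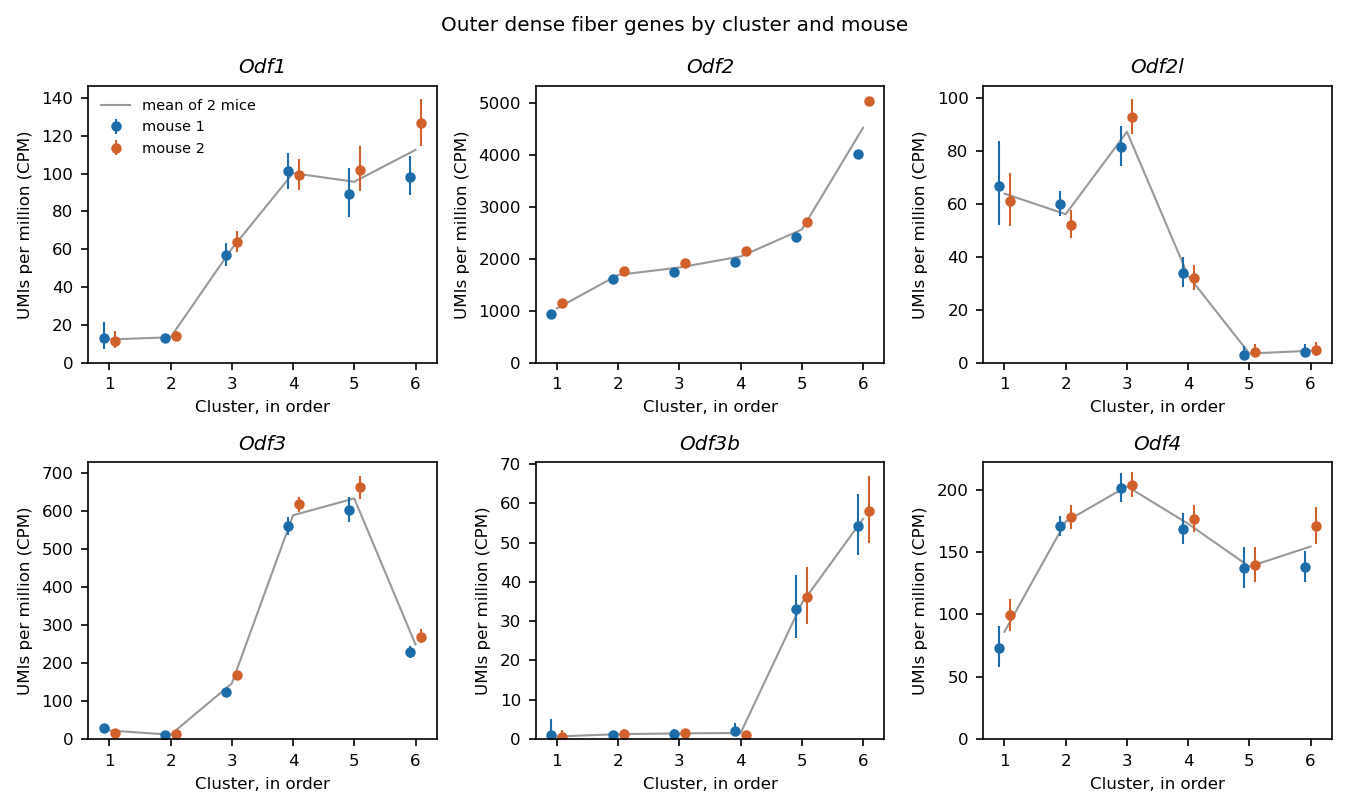
CPM (linear axis from 0) of each outer dense fiber gene in clusters 1 to 6, with 1 point per mouse, exact 95% Poisson intervals (counting error only) and a grey line through the mean of 2 mice. Odf2 climbs to 4011 and 5037 CPM in cluster 6, Odf3 is highest in cluster 5, Odf3b stays under 3 CPM until cluster 5, and Odf2l falls under 5 CPM from cluster 5 on.

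Odf1 lies on chromosome 15 (chr15:38219203-38226735, plus strand, GRCm38) and has 2 exons and 744 coding bases. Its protein carries a domain of the small heat shock family and has a cysteine-rich repeat near its end. The repeat is shown because it is the best known feature of this protein. It is a tract of 54 coding bases in exon 2 (chr15:38226485-38226538, plus strand), in which 6 units of 9 bases that fit TGNGGNCCN follow each other in frame. Capitals mark these units, which fill the whole tract, in the GRCm38 transcript sequence.
Odf1 repeat tract: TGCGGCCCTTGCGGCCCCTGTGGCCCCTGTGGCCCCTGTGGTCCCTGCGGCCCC

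Odf1 RNA was at 12.9, 12.9, 56.8, 101, 89.3 and 98.5 CPM in clusters 1 to 6 of mouse 1, and at 11.6, 14.0, 63.8, 99.4, 102 and 127 CPM in those of mouse 2. Both mice were thus low in clusters 1 and 2, intermediate in cluster 3 and high in clusters 4 to 6. The values of the mice overlapped between clusters 1 and 2 and among clusters 4, 5 and 6. From cluster 2 to cluster 3, Odf1 rose by a log2 difference of 2.26 ± 0.16 (SE, adjusted p = 5.5e-11, edgeR with Benjamini-Hochberg adjustment), and from cluster 3 to cluster 4 by 1.01 ± 0.15 (adjusted p = 5.3e-06). Between clusters 4 and 5 the direction depended on the scaling, with 0.40 ± 0.15 after TMM scaling (adjusted p = 0.035) and -0.06 ± 0.14 with library size only. From cluster 5 to cluster 6 it was 0.82 ± 0.15 (adjusted p = 0.00015, edgeR) after TMM scaling and 0.22 ± 0.15 (adjusted p = 0.25) with library size only. Along 20 bins of equal cell number over the ordering, Odf1 was highest in the last bin in both mice, at 119.5 and 173 CPM.

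Odf2 lies on chromosome 2 (chr2:29889221-29931746, plus strand, GRCm38), where the annotation gives 25 transcripts, and the snRNA gene Gm23865 overlaps it on the opposite strand. Its first RefSeq promoter window is rich in CG dinucleotides, with 26 in 300 bases against a median of 7 in all 32851 windows. The 250 bases before this transcript start are shown beside those of Odf3 and Odf3b. Odf2 was abundant from cluster 1 on, while Odf3 and Odf3b rose at different later points of the ordering. The Odf2 stretch lies wholly inside the annotated gene, and those of Odf3 and Odf3b lie partly inside theirs. Capitals mark CG dinucleotides.
Odf2 (chr2:29889470-29889719, plus strand): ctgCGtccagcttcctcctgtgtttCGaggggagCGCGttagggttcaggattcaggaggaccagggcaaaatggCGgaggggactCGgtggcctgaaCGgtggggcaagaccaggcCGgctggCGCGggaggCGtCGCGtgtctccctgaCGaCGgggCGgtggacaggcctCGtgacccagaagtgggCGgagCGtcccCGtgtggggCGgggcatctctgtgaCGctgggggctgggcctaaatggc
Odf3 (chr7:140847666-140847915, plus strand): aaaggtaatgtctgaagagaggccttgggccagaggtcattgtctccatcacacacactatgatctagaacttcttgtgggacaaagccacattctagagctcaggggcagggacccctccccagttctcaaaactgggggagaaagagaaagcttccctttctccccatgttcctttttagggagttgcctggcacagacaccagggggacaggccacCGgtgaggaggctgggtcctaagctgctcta
Odf3b (chr15:89379255-89379504, minus strand): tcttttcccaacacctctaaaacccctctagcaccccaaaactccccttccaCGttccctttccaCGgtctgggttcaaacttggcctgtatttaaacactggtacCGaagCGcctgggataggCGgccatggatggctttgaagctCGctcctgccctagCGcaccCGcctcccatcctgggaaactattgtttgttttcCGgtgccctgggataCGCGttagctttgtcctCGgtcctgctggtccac

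The sequences are from RefSeq (GRCm38.p6), in which 5 of the 6 genes matched, with 9 windows of 300 bases that span 250 bases before and 50 after a transcript start. The Odf3 window held 2 CG dinucleotides, which is more than in 14.1% of all windows, and that of Odf4 held 3. The Odf3b window held 12. The 4 Odf2 windows held 26 to 43 and the 2 Odf2l windows 25 and 27, each more than in at least 81.6% of windows. In all, 4 motifs were searched on both strands. TGACG, the core of the cAMP response element, had 2 matches in each of the first 2 Odf2 windows, which overlap each other, and was in 20.8% of all windows. The full element TGACGTCA, which contains this core, was in 1.79% of all windows and in none of the 9. The letters TATAAA were in 13.6% of all windows and in none of the 9. CCAAT was in the first 3 Odf2 windows and both Odf2l windows, and in 37.4% of all windows. No match says only that these letters are not in the window.

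Odf2 RNA was abundant from the first cluster on, and in CPM each cluster stood above the one before it in both mice, although the difference between clusters 2 and 3 did not pass the test. It was at 945, 1613, 1744, 1942, 2415 and 4011 CPM in clusters 1 to 6 of mouse 1, and at 1142, 1765, 1920, 2146, 2711 and 5037 CPM in those of mouse 2. The values of the mice overlapped only between clusters 2 and 3. Odf2 was higher in mouse 2 in all 6 clusters, with ratios of 1.09 to 1.26 between 1 animal and 1 animal. From cluster 1 to cluster 2 it rose by a log2 difference of 0.92 ± 0.17 (adjusted p = 9.2e-05, edgeR). The increase from cluster 4 to cluster 5 was 0.79 ± 0.17 (adjusted p = 0.00047) after TMM scaling and 0.33 ± 0.14 (adjusted p = 0.053) with library size only, and that from cluster 3 to cluster 4 was 0.44 ± 0.17 (adjusted p = 0.035) and 0.16 ± 0.14 (adjusted p = 0.35). The largest step was from cluster 5 to cluster 6, at 1.41 ± 0.17 (adjusted p = 5.8e-07) and 0.81 ± 0.14 with library size only (adjusted p = 8.4e-05).

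The last step of Odf2 was seen in its share of the counted RNA and not in its count per cell. From cluster 5 to cluster 6 the mean number of Odf2 UMIs went from 57.8 to 50.9 per cell in mouse 1 and from 70.9 to 68.8 in mouse 2, while the median of all UMIs per cell went from 24178 to 11304 and from 23567 to 12453. In cluster 1 the mean was 19.7 and 24.9 Odf2 UMIs per cell, and in cluster 2 it was 54.8 and 60.1. It was lower in cluster 3, at 33.2 and 42.1, although Odf2 CPM was not lower there (1744 and 1920, against 1613 and 1765 in cluster 2). The UMIs of all genes were also fewer per cell in cluster 3. They were 10425603 in 307 cells of cluster 2 and 5896734 in 310 cells of cluster 3 in mouse 1. In mouse 2 they were 7453866 in 219 cells and 8332164 in 380 cells. In cluster 2 the Odf2 count per cell was between clusters 5 and 6 in mouse 1 and under both in mouse 2. For Odf1 the count per cell was 2.14 and 2.67 UMIs in cluster 5 and 1.25 and 1.73 in cluster 6. Whether fewer UMIs per cell reflect less RNA or less capture cannot be told apart here.

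**Figure D2:**
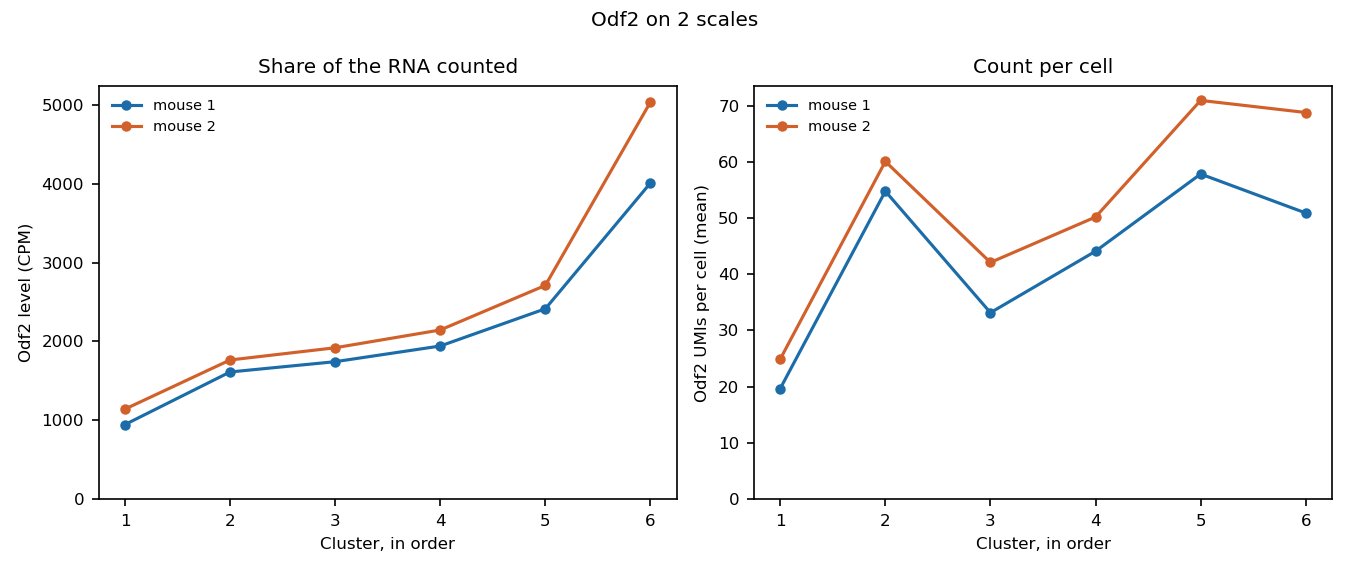
Odf2 in clusters 1 to 6 of mouse 1 and mouse 2, as CPM (left) and as mean UMIs per cell (right), both on linear axes from 0. The left panel is highest in cluster 6 at 4011 and 5037 CPM, while the right panel is at 54.8 and 60.1 UMIs per cell in cluster 2, dips in cluster 3 and is at 50.9 and 68.8 in cluster 6.

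Odf2l, on chromosome 3 (chr3:145118588-145153915, plus strand, GRCm38), was highest before Odf2 and low where Odf2 was highest. It was at 66.5, 60.0, 81.6, 33.7, 2.91 and 4.16 CPM in clusters 1 to 6 of mouse 1, and at 61.1, 52.1, 92.8, 31.9, 3.93 and 4.78 CPM in those of mouse 2. Cluster 3 stood highest and clusters 5 and 6 lowest in both mice, with no overlap with clusters 1 to 4. It rose from cluster 2 to cluster 3 by a log2 difference of 0.72 ± 0.14 (adjusted p = 0.00016, edgeR). It then fell by 1.13 ± 0.15 to cluster 4 (adjusted p = 2.1e-06). To cluster 5 it fell by 2.76 ± 0.27 (adjusted p = 1.7e-08, edgeR). From cluster 5 to cluster 6 the difference was 0.94 ± 0.38 (adjusted p = 0.068, edgeR), and 1.16 (adjusted p = 0.033) with DESeq2. These 2 clusters rest on 6 to 15 Odf2l UMIs per mouse. The share of cells with an Odf2l UMI was 78.7% and 85.3% in cluster 3, and 6.98% and 10.3% in cluster 5, at a greater median depth. In the 12 somatic cells described further on it was 16.7%, at 10536 UMIs per cell. In the last 5 bins of the ordering Odf2l stayed at or under 6.6 CPM, against 85.0 CPM in bin 8 of mouse 1 and 85.9 CPM in bin 10 of mouse 2.

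Odf3, on chromosome 7 (chr7:140847805-140851018, plus strand, GRCm38), had the widest rise before cluster 5. The gene overlaps Gm45785 on the opposite strand, which had 1 UMI in all. Odf3 was at 28.6, 9.88, 123, 559.9, 603 and 228 CPM in clusters 1 to 6 of mouse 1, and at 16.5, 13.1, 169, 617, 662 and 270 CPM in those of mouse 2. Its levels were high in clusters 4 and 5, where the mice overlapped, and lower again in cluster 6. The log2 difference was 3.77 ± 0.20 from cluster 2 to cluster 3 (adjusted p = 3.1e-13, edgeR) and 2.29 ± 0.17 from cluster 3 to cluster 4 (adjusted p = 4e-10). From cluster 4 to cluster 5 it was 0.57 ± 0.17 (adjusted p = 0.0072) after TMM scaling and 0.10 ± 0.16 (adjusted p = 0.6) with library size only. It fell by 0.75 ± 0.17 from cluster 5 to cluster 6 (adjusted p = 0.00095) after TMM scaling. With library size only the difference was -1.36 ± 0.17 (adjusted p = 1.7e-06, edgeR). The count per cell, which also follows the depth of the cells, went from 14.5 to 2.89 Odf3 UMIs in mouse 1 and from 17.3 to 3.68 in mouse 2. Along the bins Odf3 peaked in bin 14 of both mice, at 699 and 757 CPM, and was at 64.4 and 90.8 CPM in bin 20.

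The early level of Odf3 rests on few cells. In cluster 1 of mouse 1, a single cell held 13 of 31 Odf3 UMIs. The fall from cluster 1 to cluster 2 was 0.64 ± 0.27 on the log2 scale (adjusted p = 0.049, edgeR), and the difference was 0.03 (adjusted p = 0.95) without the cells called as doublets, of which cluster 1 held 2 in mouse 1 and 1 in mouse 2.

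Odf3b, the relative of Odf3 on chromosome 15 (chr15:89377449-89379282, minus strand, GRCm38), appeared later than Odf3. It was at 0.924, 1.15, 1.36, 2.11, 33.0 and 54.1 CPM in clusters 1 to 6 of mouse 1, and at 0.413, 1.34, 1.56, 0.99, 36.1 and 58.0 CPM in those of mouse 2. These levels rest on 1 to 13 UMIs per mouse in each of clusters 1 to 4, and on 68 to 195 in clusters 5 and 6. It rose by a log2 difference of 5.01 ± 0.29 from cluster 4 to cluster 5 (adjusted p = 3e-12, edgeR) and by 1.29 ± 0.19 from cluster 5 to cluster 6 (adjusted p = 7.6e-06). No other step of the 30 tested for the 6 genes was as large as that into cluster 5. Along the bins it was at 2.1 CPM in bin 14 of mouse 1 and listed without a UMI there in mouse 2, at 15.7 and 14.7 CPM in bin 15, and at 40.5 and 34.4 CPM in bin 16. Odf3 was below its bin 14 level in bins 15 and 16 of both mice. Odf3b was found in 45.3% and 57.9% of cells in cluster 5 and in 46.8% and 50.9% in cluster 6, at median depths of 24178 and 23567 UMIs in cluster 5 and 11304 and 12453 in cluster 6. It was found in 0 of 12 somatic cells, at a median of 10536 UMIs, where 3 counts would be 25% of the cells.

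Odf4, on chromosome 11 (chr11:68921835-68927081, minus strand, GRCm38), had the narrowest range between its lowest and highest cluster, as a ratio. It was at 73.0, 171, 201, 168, 137 and 138 CPM in clusters 1 to 6 of mouse 1, and at 99.1, 178, 204, 177, 140 and 171 CPM in those of mouse 2. Cluster 1 was lowest and cluster 3 highest in both mice, and the mice overlapped between clusters 2 and 4 and between cluster 6 and each of clusters 4 and 5. The step from cluster 1 to cluster 2 was a rise of 1.21 ± 0.16 on the log2 scale (adjusted p = 1.8e-06, edgeR). From cluster 2 to cluster 3 it was 0.30 ± 0.14 (adjusted p = 0.075), which became 0.30 (adjusted p = 0.0073) with the mouse as a block. From cluster 5 to cluster 6 it was 0.75 ± 0.16 (adjusted p = 0.00044) after TMM scaling and 0.15 ± 0.14 (adjusted p = 0.43) with library size only. Along the ordering, 19 of 20 bins were at or over 50% of the highest bin.

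**Figure D3:**
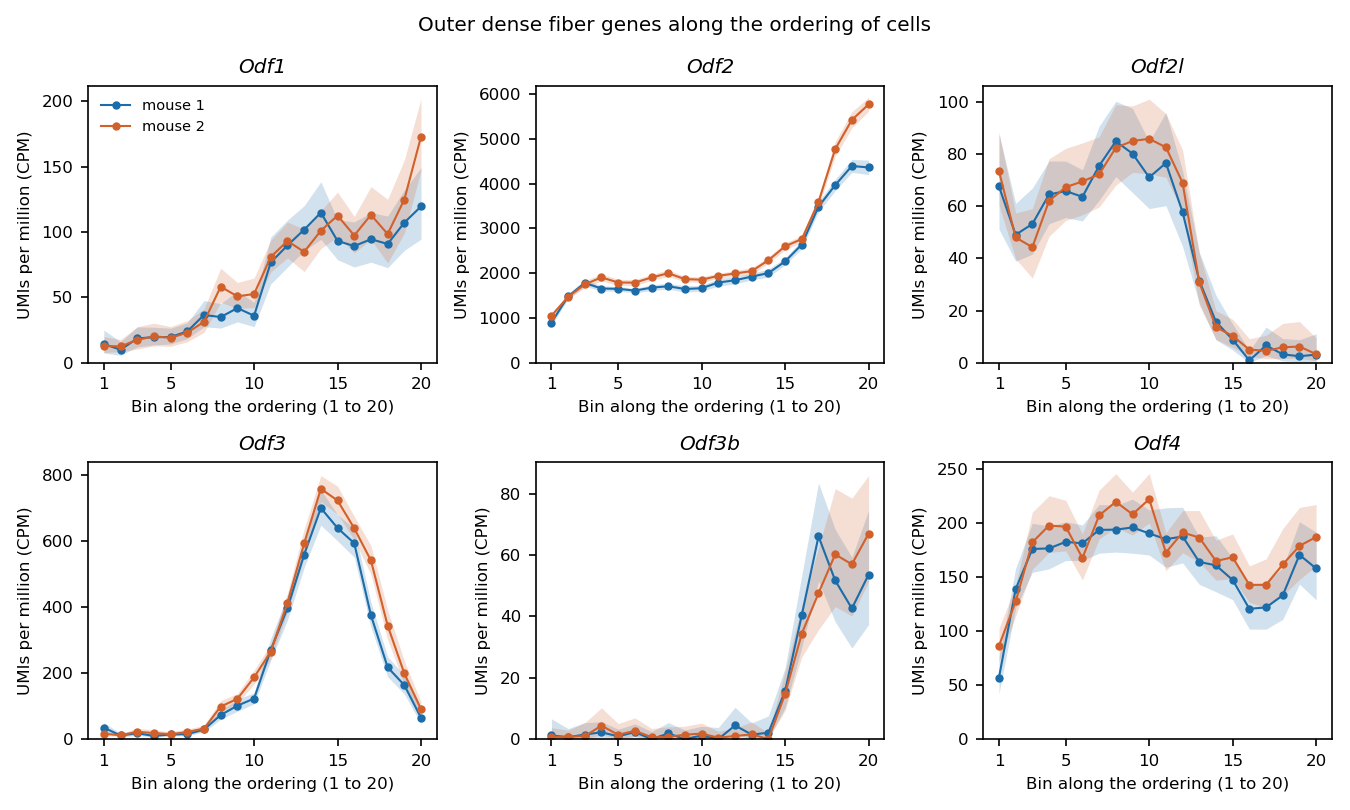
CPM (linear axis from 0) of each outer dense fiber gene in 20 bins of equal cell number along the ordering, in mouse 1 and mouse 2, with exact 95% Poisson intervals as bands (counting error only). Odf2l falls between bins 12 and 15, Odf3 peaks in bin 14 at 699 and 757 CPM, and Odf3b leaves its low level at bin 15.

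Low levels need a background, since RNA released from broken cells can enter all droplets. The 12 Sertoli-like and Leydig-like cells, somatic cells without a sperm tail, had a median depth of 10536 UMIs. Prm1, the protamine gene of condensing spermatids, had 321 UMIs in these 12 cells (2369 CPM) and was found in every cell of clusters 1 to 4 as well. In the 12 cells Odf1 had 7 UMIs (51.7 CPM, exact 95% Poisson interval 20.8 to 106, found in 6 cells), above its level in clusters 1 and 2. The interval is wide and also holds its levels in clusters 3 to 5 and that in cluster 6 of mouse 1. Odf3 had 1 UMI (7.38 CPM, 0.187 to 41.1), and the interval holds its 9.88 to 28.6 CPM in clusters 1 and 2. Odf2l had 2 UMIs (14.8 CPM, 1.79 to 53.3), above its level in clusters 5 and 6. That interval also holds its levels in clusters 4 to 6 and that in cluster 2 of mouse 2. The 1 and 2 UMIs of Odf3 and Odf2l are under 3 counts. Odf3b had 0 UMIs (exact interval 0 to 27.2 CPM), where 3 counts would be 22.1 CPM. Both limits are above its level in clusters 1 to 4. Odf4 had 4 UMIs (29.5 CPM, 8.04 to 75.6), under its level in every cluster, although 73.0 CPM in cluster 1 of mouse 1 was inside the interval. Odf2 had 62 UMIs (458 CPM, 351 to 587) pooled over both mice, under its level in every cluster. The 1 Sertoli-like cell of mouse 2 held 18 of them (1473 CPM, 873 to 2327). This was above the 945 and 1142 CPM of cluster 1, with an interval that holds both. These intervals cover counting error only, and the part of free RNA in the low levels was not tested. Odf2 and Odf2l also encode centriole proteins. Whether the 12 somatic cells make these 2 RNAs themselves was not tested.

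Counts relative to Prm1 differed between clusters for Odf2 and for Odf1. There were 31.9 and 82.7 Odf2 UMIs per 100 Prm1 UMIs in cluster 1 of mouse 1 and mouse 2, and 112 and 164 in cluster 2. In clusters 3 and 4 there were 67.3 and 59.9 in mouse 1, and 107 and 106 in mouse 2. The ratio was 4.43 and 7.46 in cluster 6, where Prm1 was most abundant, and 19.3 in the 12 somatic cells. For Odf1 it was 0.436 and 0.838 in cluster 1, 0.109 and 0.188 in cluster 6, and 2.18 in the somatic cells. In cluster 2 the Odf1 ratio was 0.894 and 1.30, in cluster 3 it was 2.19 and 3.55, and in cluster 4 it was 3.12 and 4.93. The somatic ratio rests on 7 Odf1 UMIs and was nearly that of cluster 3 in mouse 1. It is too loosely set to place clusters 3 and 4 above it. Prm1 itself was at 1438 and 1074 CPM in cluster 2 of mouse 1 and mouse 2, and at 3245 and 2015 CPM in cluster 4. In cluster 5 it was at 32145 and 26925 CPM. The ratio therefore follows both genes and cannot measure free RNA alone.

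Across the whole gene set, each step between successive clusters changed many genes, so the calls for the 6 genes are set beside the share of the 13880 genes tested that edgeR called at an adjusted p under 0.05. From cluster 1 to cluster 2, Odf2 and Odf4 rose and Odf3 fell (not without the called doublets), beside 25.6% of genes called higher and 25.0% called lower. From cluster 2 to cluster 3, Odf1, Odf2l and Odf3 rose, beside 32.4% higher and 30.0% lower. Odf4 joined them with the mouse as a block and with DESeq2, beside 34.7% and 32.3% of genes called higher in those fits. From cluster 3 to cluster 4, Odf1, Odf2 and Odf3 rose and Odf2l fell, beside 26.6% higher and 19.1% lower. From cluster 4 to cluster 5, Odf1, Odf2, Odf3 and Odf3b rose and Odf2l fell, beside 22.9% and 21.9%, although the direction of Odf1 flipped with library size only. From cluster 5 to cluster 6, Odf1, Odf2, Odf3b and Odf4 rose and Odf3 fell, beside 16.4% and 23.2%.

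The scaling bears on these calls. With library size only, the median log2 difference of all genes tested was -0.23, -0.09, -0.31, -0.57 and -0.59 over the 5 steps in order, against -0.11 to 0 after TMM scaling. The shares called higher and lower then became 20.3% and 31.4%, 30.9% and 33.8%, 22.0% and 32.7%, 17.5% and 39.2%, and 6.09% and 36.6%. On that scale Odf3b was the 1 gene of the 6 called higher from cluster 4 to cluster 5, and Odf2 and Odf3b were the 2 called higher from cluster 5 to cluster 6. The rises of Odf1 and Odf3 into cluster 3 and cluster 4, of Odf2 and Odf4 into cluster 2, and of Odf3b into cluster 5, and the falls of Odf2l into cluster 4 and cluster 5, were called on both scales. List counts given below with library size only belong beside the library size shares given here. With the mouse as a block, 27.4%, 34.7%, 28.8%, 24.6% and 18.3% of genes were called higher over the 5 steps. The shares called lower were 27.3%, 34.5%, 23.0%, 24.3% and 24.5%.

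**Figure D4:**
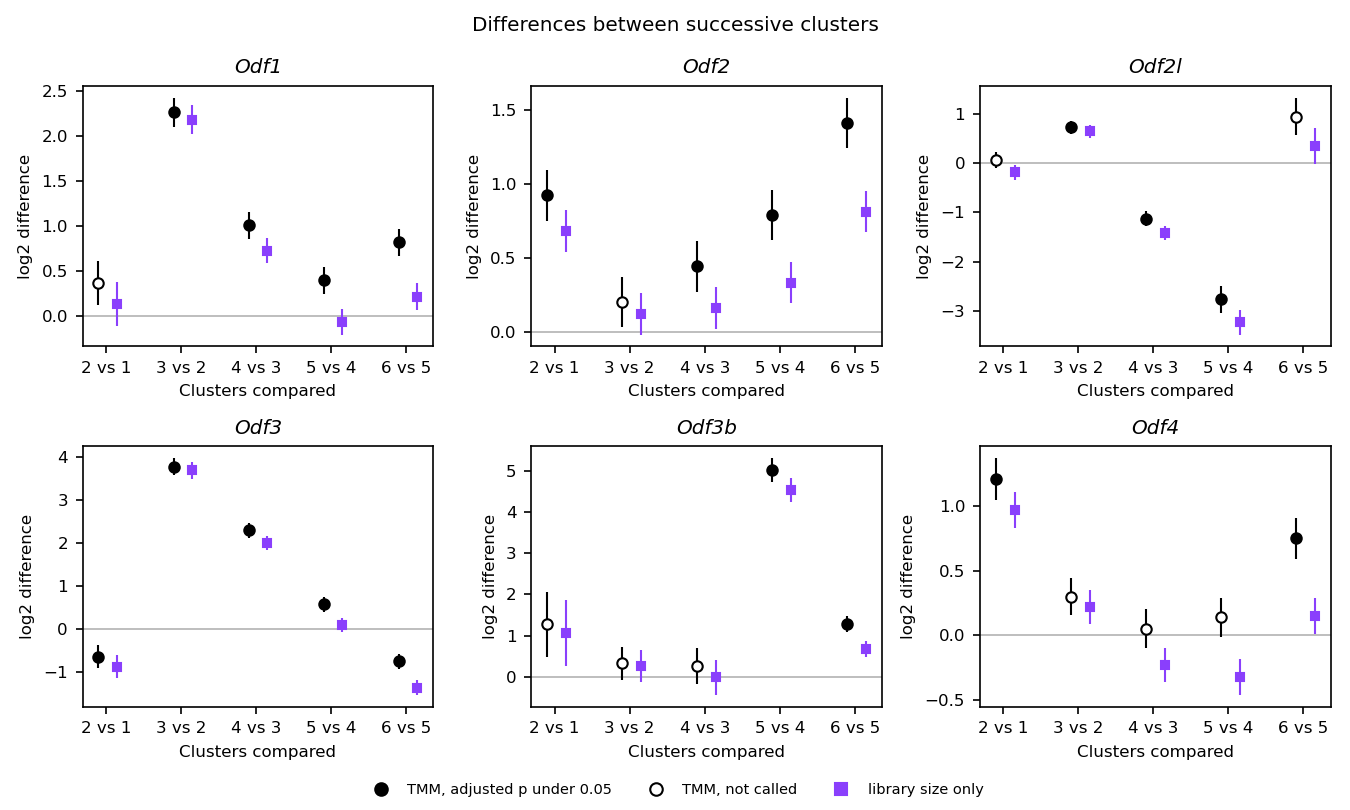
log2 difference (± SE) of each outer dense fiber gene between successive clusters, with black circles after TMM scaling (filled where the edgeR adjusted p was under 0.05) and purple squares with library size only. The purple squares lie lower at every step, and for Odf1 from cluster 4 to cluster 5 they change the direction, from 0.40 to -0.06.

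As a description over 40 sums (20 bins in each of 2 mice, with Pearson's r of log2(CPM + 1)), Odf1 and Odf3 had r = 0.88, Odf2 and Odf3b 0.859, and Odf2l and Odf3b -0.893. Odf4 had r between -0.186 and 0.248 with the other 5. The 20 sums of a mouse share 1 animal and 1 library, so they are not independent. The genes most like each member were D830044I16Rik, Stard10 and Lrrc18 for Odf1 (r = 0.983 to 0.985) and Mea1, Dnajb3 and Sgms1 for Odf2 (0.966 to 0.976). They were Psmd9, Selenof and Daw1 for Odf2l (0.966 to 0.969), and Rnf151, Cypt4 and Dgat2 for Odf3 (0.983 each). For Odf3b they were 1700125H03Rik, 4930549C01Rik and Prm2 (0.959 to 0.967), and for Odf4 Fem1c, Dnajb14 and Fhl4 with lower values (0.907 to 0.922).

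Relatives of the Odf genes and reported partners of their proteins formed a list of 9 genes, of which 8 were tested. Odf3l1, a further relative of Odf3, peaked in bin 13, and Odf3l2 had 1 UMI in all. From cluster 2 to cluster 3, 7 of the 8 rose, from cluster 3 to cluster 4, 5 rose and 2 fell, from cluster 4 to cluster 5, 4 rose and 3 fell, and from cluster 5 to cluster 6, 3 rose and 3 fell. The median log2 differences were 2.23, 0.93, 0.33 and -0.04, against medians of -0.01, -0.02, -0.11 and 0 over all genes tested. Into cluster 2, 2 rose, beside 25.6% of all genes called higher. With the mouse as a block 1 gene also fell from cluster 2 to cluster 3, beside 34.5% of all genes in that fit. Over all genes tested, 32.4% were called higher into cluster 3, 26.6% into cluster 4, 22.9% into cluster 5 and 16.4% into cluster 6. The shares called lower in these steps were 30.0%, 19.1%, 21.9% and 23.2%. In the step to cluster 5, Klc3, a kinesin light chain that binds outer dense fibers, went from 3.05 and 4.79 to 83.5 and 99.7 CPM (4.96 ± 0.21 on the log2 scale), which is the step at which Odf3b appeared. Spert rose by 1.64 ± 0.17, while Ccdc42 and Spag5 changed by -1.60 ± 0.15 and -1.48 ± 0.33.

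The fibrous sheath, which surrounds the axoneme and outer dense fibers in the principal piece, was represented by a list of 8 genes, all tested. Where the encoded proteins lie was not measured, so the counts do not show that each, such as that of Fscn3, is a sheath protein. From cluster 2 to cluster 3 and again to cluster 4, 7 of 8 rose, and from cluster 4 to cluster 5 all 8 rose (6 with library size only), with median log2 differences of 2.33, 1.25 and 1.04. Over all genes tested, 32.4%, 26.6% and 22.9% were called higher in these steps. From cluster 5 to cluster 6, 4 rose and 2 fell (4 fell with library size only), beside 16.4% and 23.2% of all genes. From cluster 1 to cluster 2, 2 rose and 3 fell, beside 25.6% and 25.0% of all genes. The falls became 0 without doublets and 1 without the filter on low counts or with another TMM reference. In those fits 23.4%, 12.0% and 22.5% of all genes were called lower. In the step to cluster 5, Fscn3, an actin-bundling protein of the testis, rose by 2.72 ± 0.20 and Gapdhs, the glycolytic enzyme of the sperm tail, by 1.35 ± 0.18. The smallest called rises were those of Cabyr (0.38 ± 0.14) and Ropn1l (0.46 ± 0.15), which were -0.08 and 0 with library size only.

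The axoneme list held 12 genes, of which 11 were tested. From cluster 1 to cluster 2, 10 rose with a median log2 difference of 1.05, beside 25.6% of all genes called higher. Into cluster 3, 5 rose and 3 fell, beside 32.4% and 30.0% of all genes. From cluster 3 to cluster 4, 3 rose and 1 fell (2 and 3 with library size only), beside 26.6% and 19.1%. From cluster 4 to cluster 5, 7 fell and 1 rose, and from cluster 5 to cluster 6, 9 fell and 2 rose (0 with library size only), with medians of -0.63 and -1.44. The shares of all genes called lower in these steps were 21.9% and 23.2%, and those called higher were 22.9% and 16.4%. In that last step the tektin genes Tekt2 and Tekt4, whose proteins line microtubules, changed by -2.65 ± 0.15 and -2.58 ± 0.15, from 494 and 503 to 47.2 and 58.3 CPM for Tekt2. The radial spoke gene Rsph1 and the central pair gene Spag17 rose by 0.66 ± 0.15 and 0.39 ± 0.13 after TMM scaling, and were at 0.06 and -0.21 with library size only. The highest bin was between 2 and 16 for the 11 genes with at least 500 UMIs (median 11), against 8 to 20 for the 6 outer dense fiber genes (median 17). It was between 6 and 20 for the fibrous sheath genes (median 17) and between 7 and 20 for the mitochondrial sheath genes (median 18).

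The mitochondrial sheath of the midpiece was represented by 5 genes. In the 5 steps in order, 3, 3, 4, 3 and 3 rose, and 1 fell into cluster 5 and 2 into cluster 6. Over all genes, 25.6%, 32.4%, 26.6%, 22.9% and 16.4% were called higher, and 21.9% and 23.2% lower into clusters 5 and 6. The 4 rises into cluster 4 became 2 with library size only, without the filter and with another TMM reference. In those fits 22.0%, 13.9% and 24.3% of all genes were called higher. With library size only 2 fell into cluster 5, beside 39.2% of all genes. In the last step Smcp, a cysteine-rich protein of the mitochondrial capsule, rose by 1.64 ± 0.19 and Gpx4, the selenoenzyme that becomes a structural protein of the capsule, by 1.45 ± 0.16, while the glycerol kinase genes Gk2 and Gykl1 changed by -2.35 ± 0.16 and -0.71 ± 0.13.

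Because ODF2 and ODF2L are also centriole proteins, 10 genes of centriole appendages were examined, of which 7 were tested. From cluster 1 to cluster 2, 1 rose and 2 fell (4 fell with the mouse as a block). From cluster 2 to cluster 3, 4 rose and 3 fell, and from cluster 3 to cluster 4, 1 rose (2 with the block) and 2 fell. From cluster 4 to cluster 5, 1 rose and 3 fell (5 fell with library size only), and from cluster 5 to cluster 6, 3 rose, where with library size only 0 rose and 1 fell. The shares of all genes called higher and lower were 25.6% and 25.0%, 32.4% and 30.0%, 26.6% and 19.1%, 22.9% and 21.9%, and 16.4% and 23.2% over the steps in order. In the first step, DESeq2 called 5 lower and library size only 4, beside 31.3% and 31.4% of all genes. In the step to cluster 5 Cep170, a subdistal appendage protein, rose by 1.18 ± 0.15 on the log2 scale, while Cntrl (centriolin) changed by -1.5 ± 0.25, and Cep164 and Cep83 of the distal appendages by -0.46 ± 0.19 and -0.37 ± 0.13. Odf2 rose and Odf2l fell in this step.

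The small heat shock genes, relatives of Odf1, had 4 of 9 members tested. From cluster 1 to cluster 2, 3 rose and 1 fell, from cluster 3 to cluster 4, 2 fell, and from cluster 5 to cluster 6, 1 rose (2 with the mouse as a block). With the block, 2 also fell from cluster 2 to cluster 3, beside 34.5% of all genes called lower in that fit. Over all genes, 25.6% were called higher and 25.0% lower into cluster 2, 19.1% lower into cluster 4 and 16.4% higher into cluster 6. The 1 fall into cluster 2 became 0 without the filter, without doublets and with another TMM reference. In those fits 12.0%, 23.4% and 22.5% of all genes were called lower. The 2 falls into cluster 4 became 1 with DESeq2, beside 16.1% of all genes. With library size only, 3 fell into cluster 5, beside 39.2% of all genes on that scale. In the first step Hspb7, Hspb1 and Hspb9 rose by 5.06 ± 0.59, 2.01 ± 0.45 and 1.64 ± 0.18, and Hspb6 fell by 0.47 ± 0.18. Hspb7 was at 2.77 CPM in cluster 1 of mouse 1 and had no UMI there in mouse 2, so its fold is poorly set. Odf1 was not called in that step, at 0.37 ± 0.24 (adjusted p = 0.22, edgeR).

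**Figure D5:**
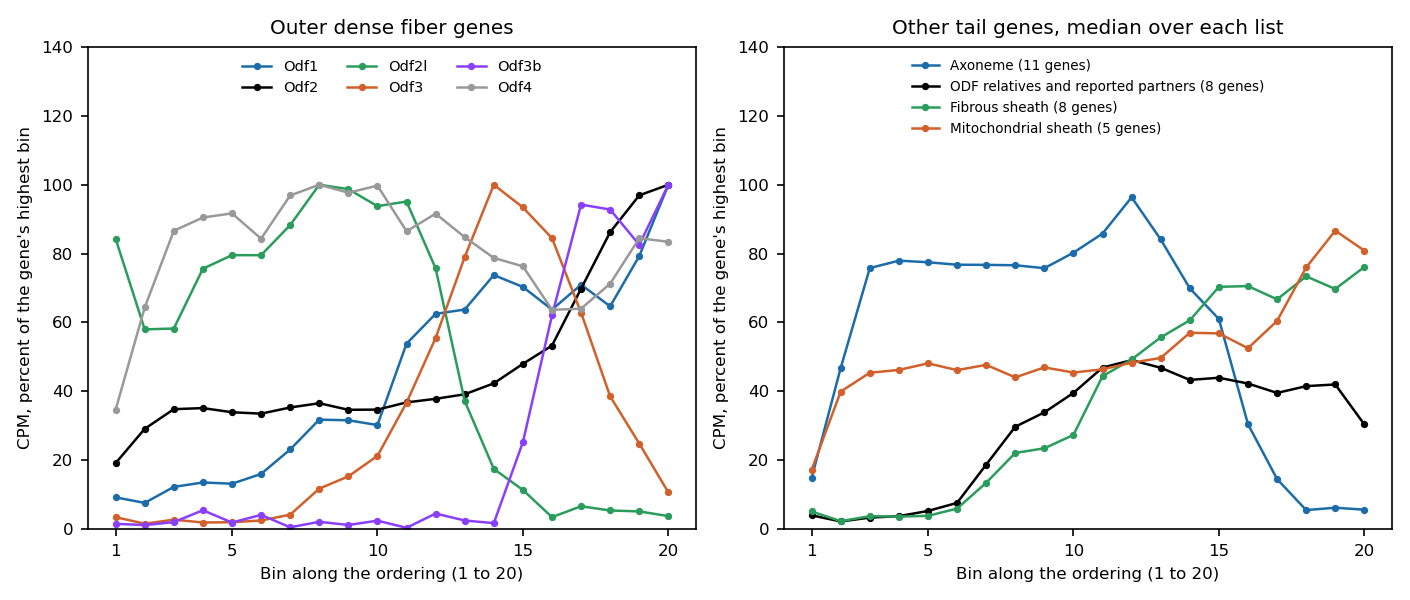
CPM as a percent of each gene's own highest bin, in 20 bins along the ordering (mean of 2 mice), for the 6 outer dense fiber genes (left) and as the median over the genes with at least 500 UMIs in 4 lists of tail genes (right). The median of the axoneme genes is highest in bin 12 and falls steeply after bin 15, while Odf1, Odf2 and Odf3b are highest in bin 20.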

How the data were processed

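Single-cell RNA of testis was measured with the 10x Chromium 3' v2 chemistry in 1 library per mouse. Per the labels and the methods of the study, the authors processed reads with bcl2fastq 2.17.1.14 and Cell Ranger 2.0.0 against a repeat-masked mm10 (GRCm38) genome with Ensembl release 89 genes and added repeat sequences, and downsampled reads when they joined the mice. The deposited values are whole UMI counts, with 27450497 UMIs in mouse 1 and 30302332 in mouse 2 (medians of 17871 and 19184 per cell, range 7114 to 154431). Cells were assigned to mice by the library number at the end of each barcode, and 0 barcodes were shared without it. Repeat rows took 1.42% of the UMIs. Masking could remove reads in repeats of a gene, which was not checked.

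The 6 genes and all gene lists were chosen with earlier results of these data known. Counts were scaled to the median total, transformed as log2(1 + value) and standardised over 27784 rows without the 6 genes. K-means (K = 9, seed 42, 10 restarts) and diffusion pseudotime (15 neighbours) used 10 principal components. A cluster took the name of the marker class with the highest mean, if at least 3 of its markers reached 1.5 times the CPM of all cells. Scrublet called 25 cells (0.980%) as doublets, which were kept. Levels have exact 95% Poisson intervals.

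UMIs of genes were summed per mouse and cluster, giving 12 sums. edgeR's quasi-likelihood test with TMM scaling and filterByExpr compared successive clusters, with Benjamini-Hochberg adjustment over 13880 genes, and SE taken as the log2 difference over the square root of F. The clusters were made from the same cells, although without the 6 genes, so the genes of the lists helped to place the cells and their counts are descriptions. Both mice contribute to every cluster, and sums of 1 number come from 1 animal. Their deviations from the cluster means correlated with r = 0.0236 to 0.23 over 15 pairs, and a fit that blocks on the animal served as an alternative. Genes named from lists are the 2 called with the largest and the 2 with the smallest log2 difference in 1 step. The 3 genes most like each member had at least 500 UMIs. The test was run on simulated data with 200 genes changed 4-fold in cluster 4, of which it called 176, beside 10 false calls. The other genes were simulated without change between clusters and with a fixed spread, unlike these data. The simulation therefore does not check the scaling between clusters that differ in many genes. Tests used edgeR 4.0.16 (R 4.3.3; DESeq2 1.42.0 as the second tool), and the rest was run in Python 3.11.15 with scanpy 1.11.5, scikit-learn 1.9.0, pandas 2.3.3, matplotlib 3.10.9, scipy 1.17.1 and numpy 2.4.6. Alternatives were DESeq2, library size only, no filter, no doublets, another K or seed, 2000 variable genes, thinning to 5000 UMIs, 10 bins, 30 neighbours and each mouse alone. Gene positions are from GENCODE (GRCm38).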

Additional observations from a re-analysis of the deposited data

Results flagged for a closer look

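Some UMIs of the outer dense fiber genes lay in the 19 cells outside the 6 clusters, which enter no comparison, and stood above the limit that 3 counts allow. Odf2 was at 613 CPM in the 7 Sertoli-like cells (52 UMIs, exact 95% Poisson interval 458 to 804), at 334 CPM in the 7 spermatogonium-like cells (25 UMIs, 216 to 494) and at 197 CPM in the 5 Leydig-like cells (10 UMIs, 94.6 to 363). Odf2 was found in each of these 19 cells. Of the Sertoli-like cells, the 6 of mouse 1 were at 469 CPM Odf2 and the 1 of mouse 2 at 1473 CPM (18 UMIs). Odf1 was at 78.9 CPM in the Leydig-like cells (4 UMIs in 3 cells), Odf3 at 53.5 CPM in the spermatogonium-like cells (4 UMIs in 3 cells) and Odf4 at 47.2 CPM in the Sertoli-like cells (4 UMIs in 2 cells). Prm1 was at 2369 CPM in the Sertoli-like and Leydig-like cells together, and the part of free RNA in these values was not tested.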

How the results depend on the processing

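Of the 30 log2 differences of the 6 genes, 20 kept their direction and their side of the threshold with library size only, 27 with DESeq2, 28 without a filter on low counts, 29 without doublets and 29 with the mouse as a block (replicate block). The block changed the call of Odf4 from cluster 2 to cluster 3 (0.30, adjusted p = 0.0073) and no other call of the 6 genes, and moved 5 list counts by over 1.5 times, which are given in the text beside the main counts. A further TMM reference (the sum of cluster 5 in mouse 1 in place of cluster 4 in mouse 2) was added after the data had been seen and kept 25. Directions reversed with library size only for Odf1 (-0.06) and Odf4 (-0.32) from cluster 4 to cluster 5, for Odf3b (-0.01) and Odf4 (-0.23) from cluster 3 to cluster 4 and for Odf2l (-0.19) from cluster 1 to cluster 2. They reversed with DESeq2 for Odf2l (-0.23) from cluster 1 to cluster 2, with the further reference for Odf2 (-0.04) from cluster 2 to cluster 3 and Odf4 (-0.07) from cluster 3 to cluster 4, and without doublets for Odf3 (0.03) from cluster 1 to cluster 2. The fall of 1 member from cluster 1 to cluster 2 became 0 without the filter, without doublets and with the further reference. Members called higher became 1 of 6 (from 4) into cluster 5 and 2 (from 4) into cluster 6 with library size only. DESeq2 called 17.9% of genes higher and 31.3% lower into cluster 2, 26.2% and 16.1% into cluster 4, and 20.1% and 17.7% into cluster 6. The further reference called 27.5% and 22.5% into cluster 2, 28.0% and 39.1% into cluster 3, 24.3% and 23.6% into cluster 4, and 18.0% and 21.6% into cluster 6. Without the filter 27014 genes were tested. Of these, 14.3% and 12.0% were called into cluster 2, 13.9% and 9.97% into cluster 4, and 7.29% and 12.3% into cluster 6. Without doublets the shares into cluster 2 were 26.8% and 23.4%. The cause of these shifts was not tested.

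List counts that moved by over 1.5 times follow, with the main count in brackets, and smaller moves are not listed. They belong beside the shares of all genes called in the same fit, given above. Relatives and partners: into cluster 2, DESeq2 and library size only called 1 higher (2) and DESeq2 1 lower (0), and into cluster 3, library size only, the block and the further reference 1 lower (0). Fibrous sheath: into cluster 2, DESeq2 and library size only called 1 higher (2), no filter and the further reference 1 lower (3) and no doublets 0 lower (3), and into cluster 6, library size only 4 lower (2). Axoneme: no filter called 1 lower into cluster 2 (0), DESeq2 5 higher into cluster 4 (3), library size only 3 lower into cluster 4 (1) and 0 higher into cluster 6 (2), and no filter 1 higher into cluster 6 (2). Mitochondrial sheath: DESeq2 and library size only called 1 lower into cluster 2 (0), library size only, no filter and the further reference 2 higher into cluster 4 (4), and library size only 2 lower into cluster 5 (1). Centriole appendages: into cluster 2, DESeq2 called 5 lower and library size only and the block 4 (2), into cluster 4, no filter and the block 2 higher (1), into cluster 5, library size only 5 lower (3), and into cluster 6, 0 higher (3) and 1 lower (0). Small heat shock: no filter, no doublets and the further reference called 0 lower into cluster 2 (1), library size only 1 lower (0) and the block and the further reference 2 lower (0) into cluster 3, DESeq2 1 lower into cluster 4 (2), library size only 3 lower into cluster 5 (0), and DESeq2, the block and the further reference 2 higher into cluster 6 (1).

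Levels in the highest cluster stayed within 1 SD with K = 10, another seed and the 6 genes kept in the clustering. The 2000 most variable genes gave 9 clusters and moved 5 of 6, for example Odf2 from 4524 to 5492 CPM. Thinning each cell to 5000 UMIs moved Odf4 to 205 CPM and left the other 5 within 1 SD. The position of the highest bin moved by over 1 SD for 5 of 6 genes with 10 wider bins and for 2 with 30 neighbours. It moved for 3 in mouse 1 alone and for 2 in mouse 2 alone. The move was largest for Odf3b in mouse 1 alone, to 82.5% of the ordering from 97.5%. Of the 30 log2 differences, 3 moved by over 1 SD in mouse 1 alone and none in mouse 2 alone. That SD came from the same 2 single-mouse values, so it does not test whether the mice agree. Odf3b rests on 606 UMIs, and the 12 somatic cells limit the background for all 6 genes.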
